A study of Rattus norvegicus with 12 samples.

Results

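Complex I (NADH:ubiquinone oxidoreductase) is the entry enzyme of the mitochondrial respiratory chain, and its nuclear genes were read here in epididymal adipocytes after chronic unpredictable stress (CUS). The genes were chosen by name: every probe of the array that is not a control and whose gene name begins with Nduf. This rule gave 57 probes of 44 genes, of 26483 genes named on the array, and each gene was read from its brightest tested probe. The probe of Ndufa13-ps, a pseudogene, stayed near background on all arrays, which left 43 tested genes, 42 of them well above background on all 12 arrays.

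Male Fisher 344 rats, about 12 weeks old when obtained, received 2 stressors per day in a randomised sequence for 35 days, overnight food and water deprivation among them, or were only handled and weighed. RNA of epididymal adipocytes was collected after these 35 days from 6 CUS and 6 control rats, with 1 one-colour Agilent array for each rat. The labels call the cells adipocytes, whereas their note on RNA extraction names preadipocytes. All 6 CUS arrays lay on 1 slide and all 6 control arrays on another, so that effects of the slide and of CUS cannot be told apart in any comparison here.

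Complex I has an L shape. Its matrix arm takes electrons from NADH (N module) and passes them along iron-sulphur clusters to ubiquinone (Q module), and its membrane arm pumps protons. The core subunits carry the chemistry: those of the matrix arm are nuclear genes, and those of the membrane arm are encoded in mitochondrial DNA. Accessory subunits surround the core, and assembly factors build the enzyme and then leave it. In white adipocytes the respiratory chain serves, among other processes, fatty acid synthesis, triglyceride storage and adipokine secretion.

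Intensities are given on the log2 scale relative to the 75th percentile of each array, and differences are CUS minus control on that scale. At the level of the whole array, the 75th percentile was 541 to 627 intensity units on the CUS arrays and 229.6 to 399.8 on the control arrays, and 64.7 to 67.0% and 60.4 to 67.3% of probes were well above background. Of 17392 tested genes, 24.2% were higher and 25.8% lower in CUS by limma at an adjusted p of 0.05. With arrays scaled to the spiked-in control RNA instead, 11420 genes were higher and 433 lower, against 4216 and 4482 as reported here. The median difference of all genes was then 0.82, against -0.02, so that all directions below are relative to the 75th percentile. Adipocyte markers were well above background on all 12 arrays for 10 of 10 genes, with 3 higher and 3 lower in CUS.

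Of the 43 tested Nduf genes, 27 were higher in CUS and none was lower, where the limma test called 24.2% of all genes higher and 25.8% lower. At an unadjusted p of 0.05, limma gave 32 members higher and 0 lower, where it gave 27.6% and 29.7% of all genes. The methods' t-test with Benjamini-Hochberg adjustment gave 24 and 0, where it gave 22.7% and 21.9% of all genes. Of the 43 differences 41 were above 0, with a median of 0.41 and a range from -0.16 to 1.03. Over all genes the median was -0.02. The size of the differences was modest. Ndufa9 was the 1 member that rose at least 2-fold, a size that 3.24% of all genes reached in that direction, and none fell at least 2-fold, as 8.76% of all genes did. In bulk RNA of isolated cells, fewer cells of a type and less RNA per cell cannot be told apart.

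The sequences of 4 probes that the results turn on are shown as deposited, 60 bases each, 5′ to 3′, with their place in the array design on rat build rn4. The Ndufa9 probe shows the largest difference and is placed on chr4:163221522-163223453, minus strand. The Ndufa11 probe, which like that of Ndufa9 had groups that did not overlap, is placed on chrUn:25058436-25061306, minus strand. The Ndufs3 probe, on chr3:75258789-75258848, minus strand, reads a core subunit. The second probe of Ndufb10, on chr10:13977395-13977454, minus strand, goes against the first one. The first pair are placed across more genome than their own length, 1932 and 2871 bases. No base is marked here.
Ndufa9: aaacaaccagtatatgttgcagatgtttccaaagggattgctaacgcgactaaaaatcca
Ndufa11: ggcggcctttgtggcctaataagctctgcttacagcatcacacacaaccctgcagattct
Ndufs3: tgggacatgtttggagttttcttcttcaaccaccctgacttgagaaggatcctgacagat
Ndufb10, dimmer probe: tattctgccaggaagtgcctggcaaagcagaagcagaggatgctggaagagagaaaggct

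**Figure D1:**
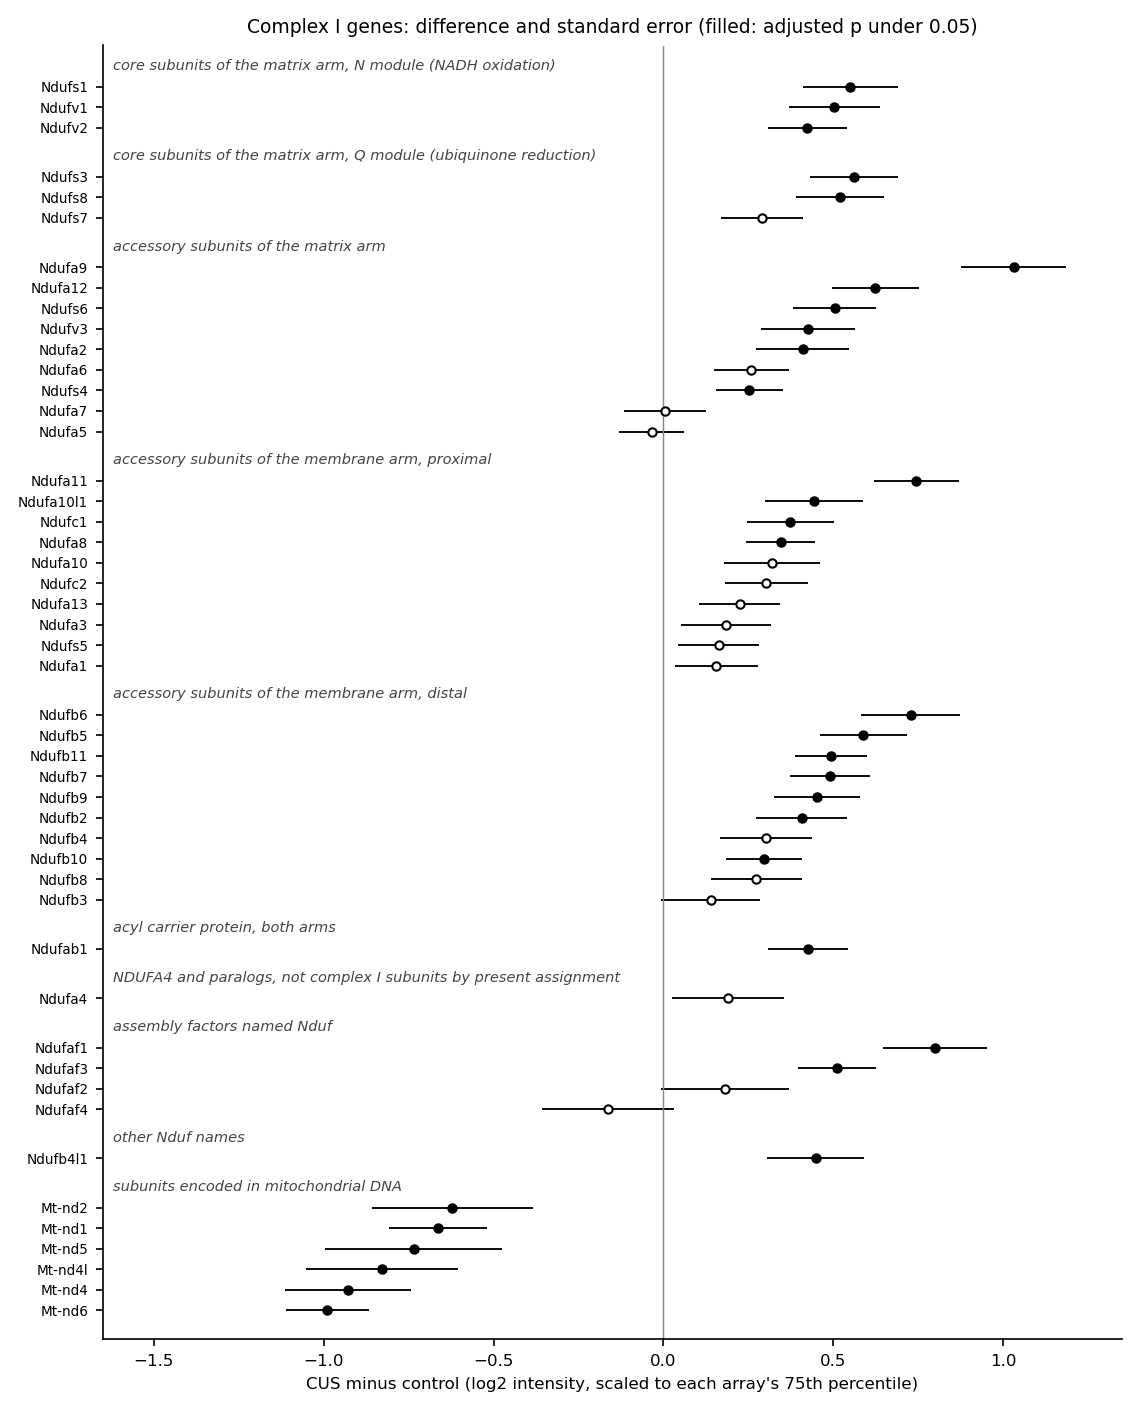
The difference CUS minus control (log2 intensity relative to each array's 75th percentile, x axis) with its standard error for 42 Nduf genes by role and for 6 subunits encoded in mitochondrial DNA; filled points have an adjusted p under 0.05. The filled Nduf points lie to the right of 0 and the 6 mitochondrially encoded ones to the left. When arrays are scaled to the spiked-in RNA, none of these 6 is called lower. Mt-nd1, Mt-nd2, Mt-nd4l and Mt-nd5 then turn sign, and Mt-nd4 and Mt-nd6 do not.

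The core subunits of the N module bind FMN and the first iron-sulphur clusters, and all 3 were higher in CUS. Ndufv1, which holds the NADH and FMN site, was between 4.87 and 5.33 on the CUS arrays (median 5.17) and between 4.35 and 5.14 on the control arrays (median 4.56). The difference was 0.50 (SE 0.133, n = 6 per group, limma adjusted p = 0.00795). The groups overlapped because 1 control array, replicate 3, lay within the CUS range. Ndufv2 ranged from 4.20 to 4.57 in CUS (median 4.50) and from 3.80 to 4.49 in controls (median 3.96), a difference of 0.42 (SE 0.117, adjusted p = 0.00999). Ndufs1, the largest subunit of the enzyme, ranged from 2.14 to 2.56 in CUS (median 2.51) and from 1.55 to 2.46 in controls (median 1.79), a difference of 0.55 (SE 0.141, adjusted p = 0.00654). For both genes the highest control array was again replicate 3, and the other 5 controls were below all CUS arrays, at up to 4.02 for Ndufv2 and 1.92 for Ndufs1.

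The Q module takes the electrons on to ubiquinone, and its core subunits Ndufs3 and Ndufs8 were higher. Ndufs3 ranged from 2.23 to 2.76 in CUS (median 2.56) and from 1.70 to 2.43 in controls (median 1.93), a difference of 0.56 (SE 0.129, adjusted p = 0.00366). In this gene 5 of the 6 control arrays lay below every CUS array. Ndufs8, which binds a pair of iron-sulphur clusters, ranged from -0.11 to 0.41 in CUS (median 0.19) and from -0.76 to -0.01 in controls (median -0.32), a difference of 0.52 (SE 0.129, adjusted p = 0.00552). Ndufs7, which holds the last cluster before ubiquinone, ranged from 2.95 to 3.45 in CUS (median 3.16) and from 2.70 to 3.19 in controls (median 2.79). Its difference of 0.29 (SE 0.121) did not pass the test (adjusted p = 0.0617). Here control replicate 1 was high too, at 3.19, beside control replicate 3 at 3.17.

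**Figure D2:**
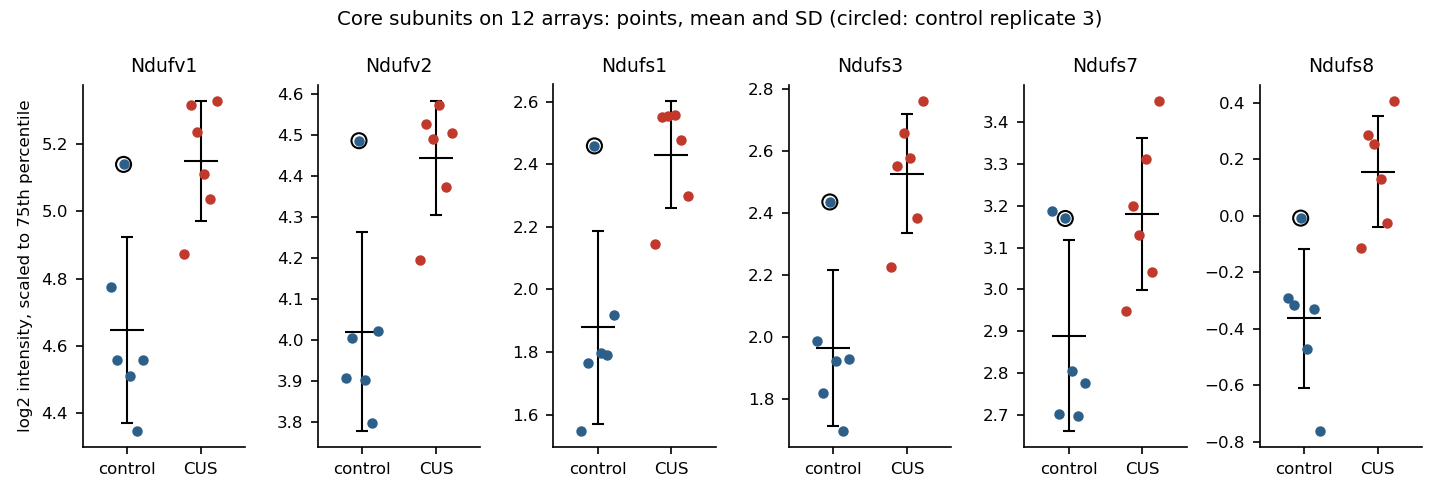
Levels of 6 nuclear core subunits on each array (log2 intensity relative to the array's 75th percentile, y axis, with its own scale for each gene), with mean and SD for the 6 control and 6 CUS arrays; control replicate 3 is circled. In 5 of the 6 genes, all but Ndufs7, the circled array is the highest control and lies within the CUS range.

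The 9 accessory subunits of the matrix arm had a median difference of 0.41, and 6 were higher. Ndufa9, which sits at the junction of the arms and binds NADPH, ranged from 2.03 to 2.44 in CUS (median 2.38) and from 0.95 to 1.96 in controls (median 1.17). It rose 2.04-fold (difference 1.03, SE 0.154, adjusted p = 0.000244), the largest value among the 43, and no control array reached the lowest CUS array. Without overlap in this direction were 10.4% of all genes and 2 of the 43. Ndufa12, an accessory subunit that is added late in assembly, ranged from 3.53 to 3.87 in CUS (median 3.74) and from 2.86 to 3.66 in controls (median 3.03), and rose by 0.62 (SE 0.128, adjusted p = 0.00185). Its groups overlapped by control replicate 3 alone, the next control being at 3.08.

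Ndufs6, Ndufv3, Ndufa2 and Ndufs4 were higher by 0.50, 0.43, 0.41 and 0.25. Ndufs6 holds a zinc ion and Ndufs4 is a frequent site of Leigh syndrome mutations. Ndufs4 was close to the threshold at its brightest probe (adjusted p = 0.0485), and its dimmer probe rose by 1.01 (SE 0.267, adjusted p = 0.00771). The dimmer probe was well above background on 6 CUS and 5 control arrays, with control replicate 1 at -5.36, so the size of its rise is uncertain. The call at the brightest probe was lost without any 1 of 10 arrays, all but CUS replicate 1 and control replicate 3 (limma adjusted p up to 0.102). It was also lost with quantile normalization (limma adjusted p = 0.134), without or with normexp correction (0.0832 with it). The deposited table (0.136) and a replicate block (0.0659) lost it too. Ndufa2 lost its call without CUS replicate 4 or control replicate 1, 5 or 6 (up to 0.0546). Quantile normalization (limma adjusted p = 0.0513) and the deposited table (0.0514) also lost the call of Ndufa2. Ndufa6, an LYR protein that anchors the acyl carrier protein, differed by 0.26 (SE 0.110, adjusted p = 0.0668). Ndufa5 and Ndufa7 were among the 5 lowest differences of all members. Ndufa5 ranged from 5.67 to 5.91 in CUS (median 5.79) and from 5.66 to 6.15 in controls (median 5.78), with a difference of -0.03 (SE 0.095, adjusted p = 0.779). Ndufa7 ranged from -1.42 to -0.93 in CUS (median -1.22) and from -1.59 to -0.92 in controls (median -1.19), with a difference of 0.0046 (SE 0.120, adjusted p = 0.976). In both genes the CUS range lay wholly within the control range.

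On the proximal membrane arm, next to the matrix arm, 4 of 10 accessory subunits were higher, with a median difference of 0.31. Ndufa11, a membrane protein at the junction with complex III in supercomplexes, ranged from 1.58 to 1.93 in CUS (median 1.80) and from 0.74 to 1.50 in controls (median 1.00). It rose by 0.74 (SE 0.125, adjusted p = 0.000516), and its groups did not overlap. The others that rose were Ndufa10l1 (0.44), Ndufc1 (0.37) and Ndufa8 (0.34). Ndufa10l1 lost its call without CUS replicate 2 (limma adjusted p = 0.0521), and Ndufc1 without CUS replicate 2, 3 or 6 or control replicate 1, 2, 4 or 5 (up to 0.0619). Quantile normalization (limma adjusted p = 0.0613) and the deposited table (0.0629) also lost the call of Ndufc1. The 6 that did not pass were Ndufa10, Ndufc2, Ndufa13, Ndufa3, Ndufs5 and Ndufa1, with differences between 0.16 and 0.32. The design places the Ndufa10l1 probe on chr9:91655487-91655546 and that of Ndufa10 on chr9:91654891-91654950, both on the minus strand. Both names may therefore read the same locus, although they are counted apart here and differ in their call. Ndufa1 is an X-linked subunit needed for assembly. It ranged from 5.53 to 5.86 in CUS (median 5.76) and from 5.39 to 6.12 in controls (median 5.49), a difference of 0.16 (SE 0.123, adjusted p = 0.302). In this gene control replicate 3 was the highest of all 12 arrays, and the other 5 controls, up to 5.51, were below every CUS array.

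On the distal membrane arm, at the tip away from the matrix arm, 7 of 10 accessory subunits were higher, with a median difference of 0.43. Ndufb6 ranged from 4.29 to 4.76 in CUS (median 4.66) and from 3.53 to 4.50 in controls (median 3.83), and rose by 0.73 (SE 0.146, adjusted p = 0.00164). Ndufb5, Ndufb11, Ndufb7, Ndufb9 and Ndufb2 rose by between 0.41 and 0.59, and Ndufb2 lost its call without CUS replicate 2 or 6 or control replicate 4 or 5 (limma adjusted p up to 0.0549). Ndufb7 and the proximal subunits Ndufa8 and Ndufs5 are the twin cysteine proteins that face the intermembrane space. Ndufb3, which is N-methylated in the assembled enzyme, ranged from 6.14 to 6.64 in CUS (median 6.48) and from 6.03 to 6.88 in controls (median 6.14), a difference of 0.14 (SE 0.145, adjusted p = 0.442). Control replicate 3 was above all CUS arrays, and the next control, at 6.32, lay within the CUS range. Ndufb4 and Ndufb8 differed by 0.30 and 0.27 and did not pass, and Ndufb4l1, a gene named after Ndufb4, rose by 0.45 (adjusted p = 0.0199).

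Over the arms, 12 of 16 matrix arm subunits and 11 of 20 membrane arm subunits were higher, with medians of 0.46 and 0.33. The difference between the arms was not tested. Ndufab1, the mitochondrial acyl carrier protein that is a subunit of both arms and serves lipoic acid synthesis, rose by 0.43 at its brightest probe (SE 0.117, adjusted p = 0.00995). Ndufa4 carries a complex I name but is now assigned to complex IV, and its difference of 0.19 (SE 0.164) did not pass (adjusted p = 0.347).

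Of the 4 assembly factors that carry an Nduf name, 2 were higher. Ndufaf1, which joins an early intermediate of the membrane arm, ranged from -2.26 to -1.71 in CUS (median -1.89) and from -3.10 to -2.20 in controls (median -2.84). It rose by 0.80 (SE 0.153, adjusted p = 0.00123), the second largest difference of the 43, with control replicate 3 just above the lowest CUS array. With normexp background correction before the same scaling, its difference was 0.24 and did not pass (limma adjusted p = 0.0570). Ndufaf3, which acts early on the Q module, rose by 0.51 (SE 0.115, adjusted p = 0.00315). Ndufaf2, a paralog of Ndufa12 that is bound late in assembly, differed by 0.18 (SE 0.189, adjusted p = 0.441). Its probe was dim, well above background on 6 CUS and 4 control arrays. Ndufaf4, a partner of Ndufaf3, ranged from -1.33 to 0.01 in CUS (median -0.18) and from -0.46 to -0.07 in controls (median -0.17), with a difference of -0.16 (SE 0.195, adjusted p = 0.502). The wide CUS range came from replicate 6, since the other CUS arrays were at -0.45 or above. All 4 probes of Ndufaf4 had a difference below 0, between -0.24 and -0.06, and none passed.

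Assembly factors known by other names were read as a list beside the members, and 8 of 14 were higher and none lower (median 0.37). Of all genes, 24.2% were higher and 25.8% lower. The largest rise of the list was that of Tmem70, which acts on complex V and complex I, at 1.32 (SE 0.197, adjusted p = 0.00024). Chchd4, the intermembrane space import protein, rose by 0.86 (SE 0.101, adjusted p = 4.61e-05), and Timmdc1, a membrane arm factor, by 0.73 (SE 0.114, adjusted p = 0.000307). For these 3 genes and for Lyrm2 (0.51) the groups did not overlap, with CUS above, as in 10.4% of all genes. Nubpl, which delivers iron-sulphur clusters to complex I, rose by 0.49, Tmem126b by 0.48, Dmac2 by 0.40 and Acad9, a flavoprotein of the same early complex as Ndufaf1, by 0.35. Ecsit and Foxred1 differed by 0.22 and 0.16 and did not pass. When probes that RefSeq now names as Nduf genes were added, Ndufaf6 (0.42) and Ndufb4l3 (0.47) were higher, and Ndufaf5 (0.16) and Ndufaf7 (0.21) did not pass.

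In 10 of the tested genes more than 1 probe could be compared, and in 2 of them the probes went in opposite directions. The brightest probe of Ndufb10, at the tip of the membrane arm, ranged from 4.85 to 5.21 in CUS (median 4.99) and from 4.49 to 5.10 in controls (median 4.69), and was higher by 0.30 (SE 0.112, adjusted p = 0.0418). This call was lost without any 1 of 9 arrays, all but CUS replicate 1 and control replicates 1 and 3 (limma adjusted p up to 0.0909). A replicate block lost it as well (limma adjusted p = 0.0528). The dimmer probe, shown above, lies 26 bases from it and ranged from 3.13 to 3.22 in CUS (median 3.21) and from 3.22 to 3.90 in controls (median 3.46), lower by 1.24-fold (difference -0.30, SE 0.102, adjusted p = 0.0254). The direction of Ndufb10 therefore depends on the probe that stands for it. The dimmer probe of Ndufab1 starts at base 2509 of the transcript, where the brighter starts at base 413, and was well above background on all 6 control arrays and on 1 of the 6 CUS arrays. It ranged from -6.82 to -5.65 in CUS (median -6.08) and from -4.76 to -4.13 in controls (median -4.33). As measured it was 3.25-fold lower in CUS, but most CUS values are near background, so the size of this fall is uncertain. Raising CUS values to at least the lowest signal well above background on their array left the CUS mean at -6.09. That floor comes from all probes of the array and is no detection limit of this probe, so no bound is drawn. The 2 probes of Ndufa10l1, Ndufs6 and Ndufs4 and the 3 of Ndufv3 were all higher. In Ndufb4 and Ndufs5 the dimmer probe passed (0.45 and 0.33) and the brightest did not.

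**Figure D3:**
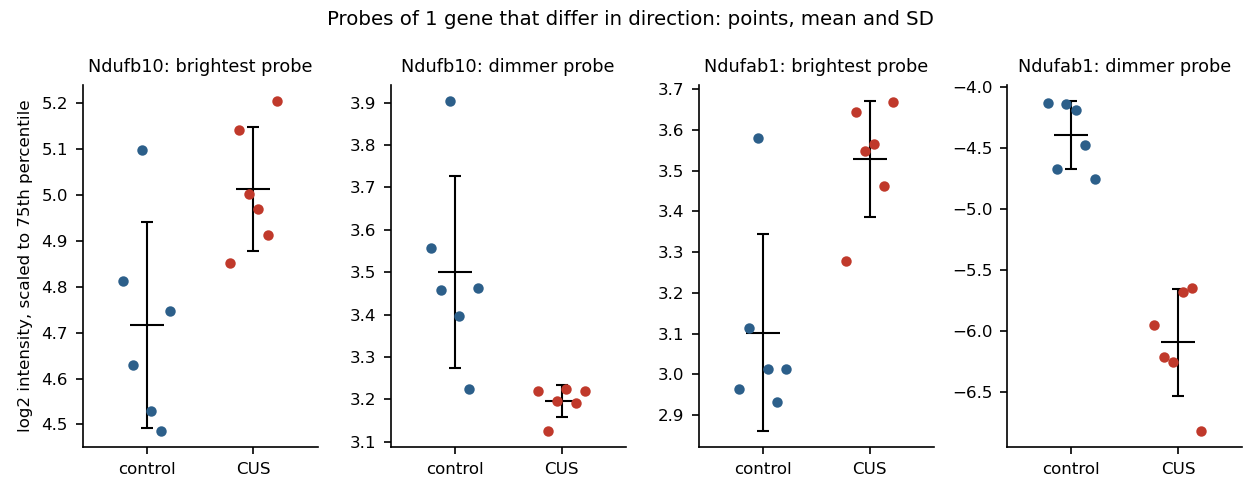
Levels of both probes of Ndufb10 and of Ndufab1 on each array (log2 intensity relative to the array's 75th percentile, y axis, with its own scale for each probe), with mean and SD for 6 control and 6 CUS arrays. In both genes the brightest probe is higher in CUS and the dimmer probe lower, and the dimmer probe of Ndufab1 was well above background on 1 of 6 CUS arrays, so that its CUS points are near background.

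The membrane arm core is encoded in mitochondrial DNA, and its genes, which carry no Nduf name, were found by the chain number in the probe description and a place on chrM. Of 7 such genes, 6 were matched to a tested probe and all 6 were lower in CUS (25.8% of all genes were), with a median difference of -0.78; after scaling to the spiked-in RNA or without scaling none was called and the sign of several turned. Mt-nd6, the one encoded on the other strand, ranged from 2.92 to 3.47 in CUS (median 3.22) and from 3.86 to 4.53 in controls (median 4.18), a difference of -0.99 (SE 0.123, adjusted p = 7.13e-05). Mt-nd4, a proton pumping subunit, ranged from 7.16 to 8.09 in CUS (median 7.95) and from 8.39 to 9.32 in controls (median 8.74), a difference of -0.93 (SE 0.185, adjusted p = 0.00155). In these 2 genes and in Mt-nd1 (-0.66) the groups did not overlap, with CUS below, as in 11.5% of all genes. Mt-nd4l, Mt-nd5 and Mt-nd2 differed by -0.83, -0.74 and -0.62. Mt-nd5 lost its call without CUS replicate 2 or 5 or control replicate 1, 3 or 4 (limma adjusted p up to 0.0655), and Mt-nd2 without any of these or CUS replicate 3 or 6 or control replicate 5 (up to 0.0909). Of the 7 other tested probes placed on chrM, a set chosen after its values were seen, 6 were lower and none higher on the scale relative to the 75th percentile.

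A gap between both genomes within an array is unchanged by any scaling that shifts all log2 values of the array by the same amount. Quantile normalization, as in the deposited table, and normexp background correction are not such shifts, and the gap was not computed with them. For each array, the median deviation of the 43 Nduf genes from their means over the 12 arrays was subtracted from that of the 6 mitochondrially encoded subunits. This gap lay between -1.49 and -0.05 on the CUS arrays (median -0.56) and between 0.29 and 1.00 on the control arrays (median 0.62), with no overlap. It was lowest on CUS replicate 6, where the mitochondrially encoded subunits were at -1.15. Control replicate 3, at 0.58, lay within the control range for this gap, although it was high in both sets of genes.

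Among the arrays, control replicate 3 stood apart for the nuclear genes. It was the highest control array in 40 of the 43 genes and the highest of all 12 arrays in 16. Its median deviation over the 43 genes was 0.26, where the other 5 control arrays were between -0.38 and -0.21. CUS replicate 1 was the lowest CUS array in 39 of the 43, with a median of -0.03, and the other 5 CUS arrays were between 0.14 and 0.34. Without control replicate 3, 39 of the 43 were higher, as were 29.2% of all genes, and 28 lay above all 5 remaining controls, as 19.7% of all genes did, against 2 of 43 and 10.4% with all arrays. Without CUS replicate 1, 30 were higher, as were 24.9% of all genes.

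**Figure D4:**
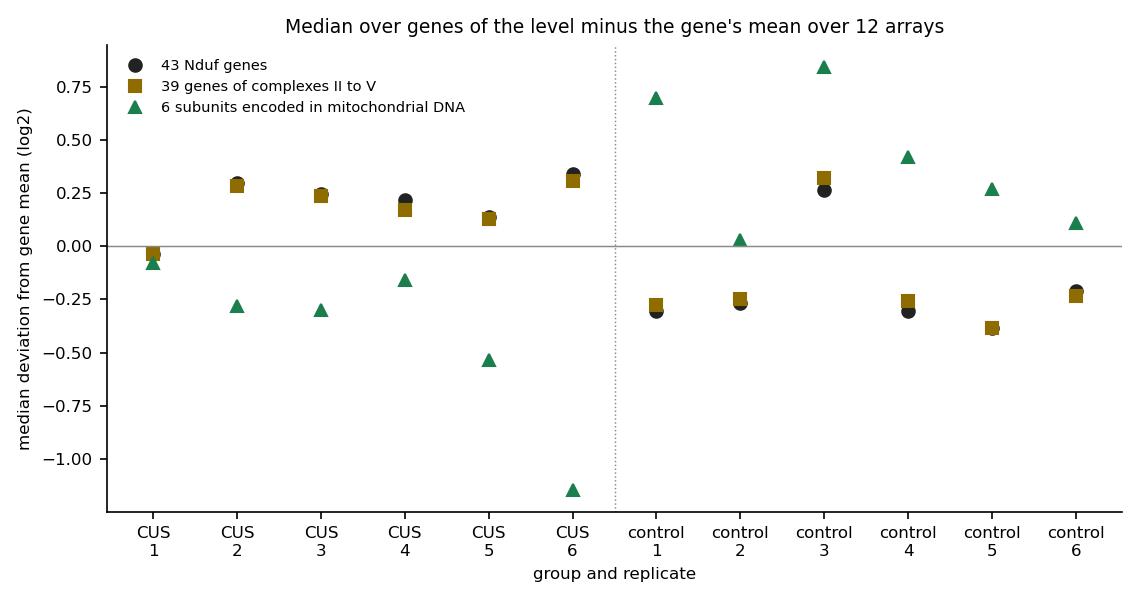
Median deviation on each array (level minus the gene's mean over the 12 arrays, log2, y axis) of 43 Nduf genes, 39 genes of complexes II to V and 6 subunits encoded in mitochondrial DNA, for 6 CUS and 6 control arrays (x axis). The nuclear sets lie together, at or above -0.03 in CUS and below 0 in all controls but replicate 3. The mitochondrially encoded set runs the other way relative to the 75th percentile. With spike-in scaling none of these 6 is called lower. Mt-nd1, Mt-nd2, Mt-nd4l and Mt-nd5 then turn sign, and Mt-nd4 and Mt-nd6 do not.

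Markers of cell types differed between the same arrays. CUS replicate 1 had the lowest CUS signal of adipocyte markers (10.53, log2 scale). It had the highest CUS signal of preadipocyte and stromal (6.34), endothelial (5.22), smooth muscle (3.74) and mast cell markers (2.48). For red blood cell, macrophage and mesothelial markers it was at neither end of the CUS range. Control replicate 3 had the highest summed signal of 10 adipocyte markers, 11.45 on the log2 scale, where the other 11 arrays were between 10.51 and 10.82. It also had the lowest control signal of endothelial markers (4.24, other controls 5.71 to 6.36) and of smooth muscle markers (2.36, other controls 4.30 to 5.52). The CUS arrays lay at 4.22 to 5.22 and 2.34 to 3.74 in these lists, in which 5 of 7 and 5 of 7 genes were lower and none higher. Control replicate 3 was also the lowest control for preadipocyte and stromal (4.91), macrophage (3.39), mesothelial (0.88), red blood cell (5.72) and mast cell markers (-1.61). In each of these further lists every CUS array lay above it. Red blood cell markers were higher in 7 of 7 tested genes (10.98 to 11.46 in CUS, 5.72 to 7.24 in controls) and mast cell markers in 6 of 7 (1.11 to 2.48 and -1.61 to -0.95). In macrophage markers 2 of 7 and in mesothelial markers 3 of 4 were higher, none lower, and in preadipocyte and stromal markers 1 of 7 was higher and 1 lower. Of 4 brown adipocyte markers, Ucp1, Dio2 and Ppargc1a did not pass the filter on dim probes and Cidea was higher (0.64, adjusted p = 0.0161). Beside these counts, 24.2% of all genes were higher and 25.8% lower. The part of these cell types in the differences of complex I was not tested.

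The other respiratory complexes gave values of a like kind. Where 24.2% of all genes were higher and 25.8% lower, 20 of 39 tested nuclear genes of complexes II to V were higher and none lower. These were 4 of 4 genes of complex II (median 0.51), 6 of 9 of complex III and cytochrome c (0.47), 3 of 10 of complex IV (0.31) and 7 of 16 of complex V (0.26). Per array the medians of this set lay between -0.03 and 0.31 for CUS and between -0.38 and 0.32 for controls, close to those of the Nduf genes, and the highest control was replicate 3 once more. The rise was therefore not shown to be particular to complex I, and the difference between the complexes was not tested.

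Of the regulators of nuclear respiratory genes, 2 of 12 were higher and 1 lower, with a median of -0.07. Among all genes 24.2% were higher and 25.8% lower, so calls were no more frequent in this list than elsewhere. Yy1, a zinc finger factor, rose by 0.46 (SE 0.084, adjusted p = 0.00088) with no overlap of the groups, and Tfam, which packages and transcribes mitochondrial DNA, by 0.32 (SE 0.105, adjusted p = 0.0238). Gabpb1, a subunit of the ETS factor GABP, fell by 0.33 (SE 0.088, adjusted p = 0.00746). Nrf1 differed by -0.02 (SE 0.083), Esrra by 0.03 (SE 0.104) and Ppargc1b by -0.24 (SE 0.226), and none of these passed. The probe of Ppargc1a did not pass the filter on dim probes.

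Promoter windows from RefSeq (build GRCr8, 250 bases before and 50 after the start) were found for 39 of the 43 genes and searched on both strands for the letters of known sites. GGGCGG (SP1) was in 18 of the 39 windows, where 33.1% of all 33469 windows held it, and CCAAT (NF-Y) was in 12 (37.5%). CCGGAAG (ETS factors) and AAGATGGC (YY1) were in 8 windows each, where 8.75% and 3.17% of all windows held them. The NRF1 palindrome of 10 bases was in 2 (0.852%), TATAAA in 3 (14.2%) and TCAAGGTCA (ERR) in none (0.433%). The median GC content was 57.3% in the 39 windows and 51.7% in all windows, and the shares were not adjusted for it. These matches are descriptions of letters, not of binding.

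The letters were found both in genes that rose and in genes that did not pass. Of 23 windows of genes that rose, 5 held the ETS letters and 4 the YY1 letters, and of 16 windows of genes that did not pass, 3 and 4 held them. The stretch of 250 bases before the start is shown for Ndufa11, which has a pair of overlapping NRF1 matches, and for Ndufs8, a core subunit with 3 CCAAT boxes and an ETS match. Ndufa11 is on chr9:1637364-1637613, plus strand, and Ndufs8 on chr1:210573699-210573948, minus strand, both of build GRCr8, with the matches in capitals.
Ndufa11: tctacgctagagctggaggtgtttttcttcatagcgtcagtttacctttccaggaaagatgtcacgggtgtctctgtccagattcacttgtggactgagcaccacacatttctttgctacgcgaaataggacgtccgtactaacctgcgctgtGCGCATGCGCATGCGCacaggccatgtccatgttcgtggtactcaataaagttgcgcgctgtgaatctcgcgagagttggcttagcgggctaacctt
Ndufs8: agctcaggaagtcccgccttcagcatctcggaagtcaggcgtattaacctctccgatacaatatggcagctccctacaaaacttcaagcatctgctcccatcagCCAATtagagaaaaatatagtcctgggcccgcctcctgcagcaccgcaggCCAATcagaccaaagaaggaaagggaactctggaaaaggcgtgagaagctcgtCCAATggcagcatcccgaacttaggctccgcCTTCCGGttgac

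**Figure D5:**
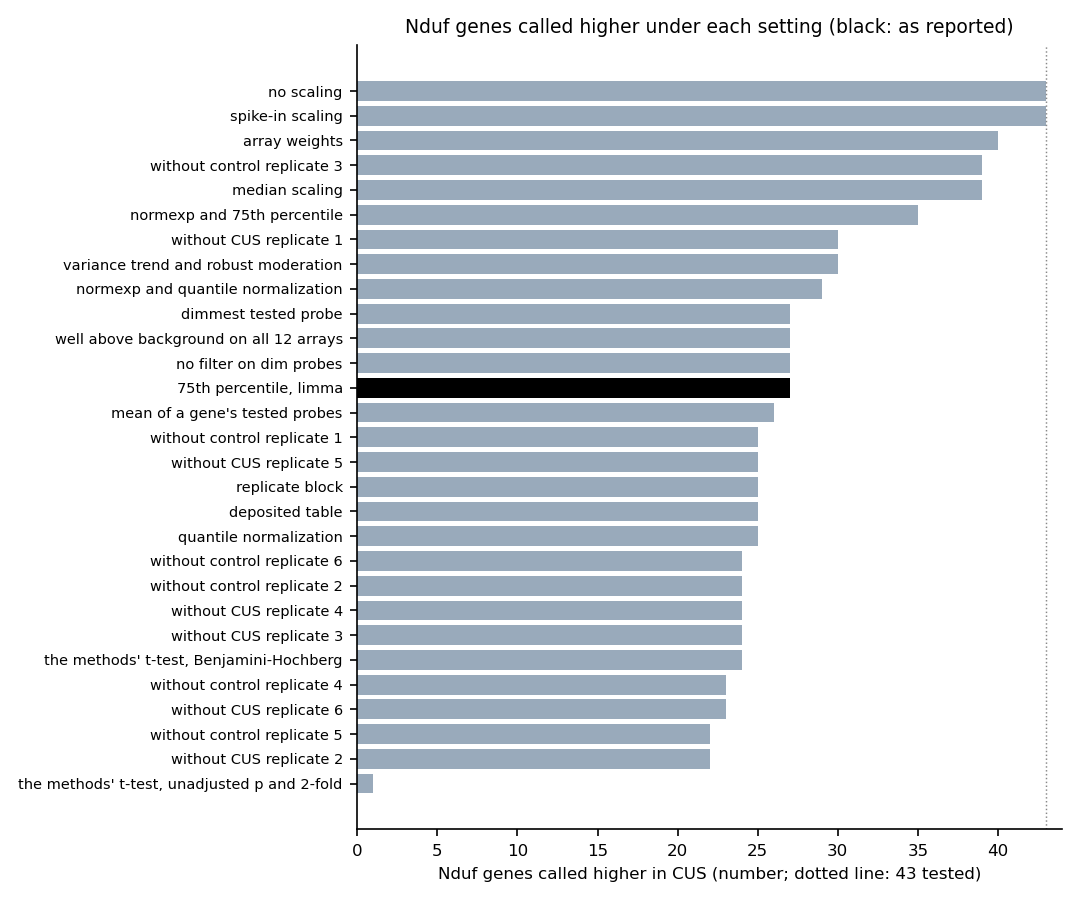
Number of the 43 tested Nduf genes called higher in CUS (x axis) under each setting of the processing (y axis), with the setting of this report in black. All but 1 setting give 22 to 43 genes, and the exception is the methods' t-test with a 2-fold threshold, which gives 1.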

How the data were processed

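Expression was measured on 12 one-colour Agilent arrays, 1 per rat, and groups were taken from the sample labels. Per the file headers, the authors' scanner images were read with Agilent Feature Extraction 10.7.3.1, and the deposited intensity of each spot is background-subtracted and detrended within its array but not normalized between arrays. The deposited series table holds intensity values that the authors quantile normalized, and was used as an alternative. Spots of a probe were averaged, log2 was taken and the 75th percentile of the array subtracted. The 19728 probes that passed the scanner's background criterion on 6 or more of the 12 arrays entered limma 3.58.1 in R 4.3.3 (CUS against control, no covariates, Benjamini-Hochberg adjustment over all of them, threshold 0.05), and a gene was read from its brightest tested probe.

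The members and gene lists were chosen with earlier results of these data known. By rule, every Nduf gene may be named, with full statistics for the core subunits, the 5 largest and 5 lowest differences and genes whose probes disagree, and other genes come from fixed lists. Positions of probes were taken from the design (rn4), and promoters are from RefSeq (GRCr8). The values of 1 member are not reported here, although it is part of the counts and medians. The fit was tested on simulated data. The number of arrays limits the precision. Alternatives covered scaling, background correction, the filter on dim probes, the choice of probe, the test, a replicate block and leaving out each array.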

Additional observations from a re-analysis of the deposited data

Results flagged for a closer look

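In 14 genes control replicate 3 lay far above the other 5 control arrays, with the level given here on the log2 scale relative to the 75th percentile. These were Ndufb3 (6.88), Ndufa4 (6.84), Ndufs5 (6.42), Ndufa1 (6.12), Ndufb2 (5.88), Ndufc2 (5.59), Ndufb6 (4.50), Ndufv2 (4.49), Ndufa10 (4.36), Ndufb5 (3.94), Ndufb7 (3.68), Ndufa12 (3.66), Ndufc1 (3.61) and Ndufab1 (3.58). CUS replicate 1 lay far below the other CUS arrays in Ndufa4 (5.95) and Ndufa9 (2.03). CUS replicate 6 was the far lowest CUS array in Ndufaf4, at -1.33. Chance marks about 1 in 20 groups in this way, and the genes share their arrays, so that these 17 values are not independent of each other.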

How the results depend on the processing

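No Nduf gene that was called higher changed sign under any scaling, but counts of calls moved with it. Scaling to spiked-in RNA gave 43 Nduf genes higher (27 as reported), 39 genes of complexes II to V (20), 14 assembly factors with other names (8) and 0 mitochondrially encoded subunits lower (6), and 11420 of all genes higher and 433 lower. No scaling gave 43, 39, 14 and 0, and 11766 and 679. Median scaling gave 39, 35, 14 and 4, and 7550 and 2539. Under spike-in scaling Mt-nd1, Mt-nd2, Mt-nd4l and Mt-nd5 turned to 0.18, 0.22, 0.016 and 0.11, and Ndufa5 and Ndufaf4 to 0.81 and 0.68. Without scaling Mt-nd1, Mt-nd2 and Mt-nd5 turned to 0.11, 0.16 and 0.042, and Ndufa5 and Ndufaf4 to 0.74 and 0.61. The cause was not tested. Normexp background with the 75th percentile gave 35 Nduf genes higher and 1 lower (Ndufaf2, -0.43, from a probe near background). It gave 31 genes of complexes II to V higher and 7639 of all genes lower. Array weights gave 40 Nduf genes and 31 genes of complexes II to V, and 5672 of all genes higher and 5924 lower. Without the filter on dim probes 11240 of all genes were lower. The methods' t-test at an unadjusted p and 2-fold gave 1 Nduf gene, 2 genes of complexes II to V, 1 assembly factor and 0 mitochondrially encoded subunits, and 563 and 1517 of all genes. With the mean of a gene's probes 1 Nduf gene was lower (Ndufab1, -0.64) and Ndufb10 was at -0.00377. With the dimmest probe 2 were lower (Ndufab1, -1.70, from a probe near background in CUS, and Ndufb10, -0.30). Leaving out 1 array gave 22 to 39 Nduf genes higher and 0 lower (3655 to 5084 of all genes higher and 3892 to 5289 lower), the most without control replicate 3. The same replicate numbers occur in both groups, but only 2 of 6 arrays correlated best with their own number, so they were not taken as pairs. With a replicate block 25 Nduf genes were higher and 0 lower, and 4304 and 4796 of all genes. Quantile normalization gave 25 and 0, and 4704 and 3570 of all genes. The deposited table gave 25 and 0, and 4691 and 3547 of all genes.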
